A study of Homo sapiens with 6 samples.

Results

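The genes described here are 57 components of DNA replication and mitosis, measured in HepG2, a human hepatocellular carcinoma cell line, with and without a hairpin RNA against TCTP. They were chosen by symbol from textbook roles, with earlier results of these data known. Of them 27 act in S phase, 1 (CCND1) acts in G1 and 29 act in mitosis. All 57 were found once among the 26389 genes of the count table and among the 26184 genes with FPKM values, and all 57 had enough reads to be tested, as did 14197 genes in all. Cells of the shCtrl group (n = 3 libraries) carried a plasmid with a control short hairpin RNA. Cells of the shTCTP group (n = 3) carried one directed at TCTP, a translationally controlled tumour protein that TPT1 encodes. Both groups received their plasmid with a lipid reagent in the same serum-containing medium, so transfection itself is shared by control and knockdown. The labels name a harvest at 48 h, for quantitative PCR. They do not say whether replicate libraries came from separate cultures or how many cells took up a plasmid, so p-values measure only how these samples vary, and part of that may be technical.

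A cell copies its genome in S phase and divides it in mitosis, and each programme is made of genes that are transcribed together. MCM helicases are loaded at origins in G1, fire in S phase, and are followed by clamps, polymerases and enzymes that supply nucleotides. Mitosis is started by cyclin B with CDK1, carried out by kinases, kinesins and spindle proteins, checked at the kinetochore, and ended by a ubiquitin ligase, the APC/C. S phase genes are known for E2F sites in their promoters. Mitotic genes are known for CCAAT boxes and for the cell cycle genes homology region (CHR), an element bound by the DREAM and MuvB complexes. In the adult liver most hepatocytes are quiescent, whereas HepG2 cells divide in culture. In RNA from whole cultures, fewer cells in a phase and less RNA per cell cannot be told apart.

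The libraries held 25427614 to 30486409 reads assigned to genes, and knockdown library 3 was the shallowest. That library also stood apart, with a mean correlation with the other libraries of 0.977 against 0.986 to 0.987. TPT1, the targeted gene, gave 2575, 2249 and 2290 CPM (reads scaled to library size with TMM factors) in control libraries and 2032, 1807 and 1559 CPM in knockdown libraries. The groups did not overlap, with knockdown at an estimated 75.9% of control, but the change did not pass (a difference of -0.40 log2 units with an SE of 0.17, edgeR adjusted p = 0.396; exact two-sided permutation p = 0.1, the smallest that 3 against 3 allows). The members are therefore described between groups whose target transcript was not shown to differ after adjustment. For cell type markers, CPM were scaled to total reads without TMM factors. All 10 hepatocyte markers reached at least 1 CPM in every library, and their sum was 20800 to 23070 CPM in control and 17210 to 20010 CPM in knockdown libraries. Summed leukocyte markers stood at 8.98 to 10.3 against 6.45 to 8.30 CPM. Nearly all of that sum was CD14 (4.995 to 6.997 CPM over all libraries) and CD68 (1.455 to 3.316 CPM), with CD3E at 0 or 1 read. Summed endothelial markers stood at 0.330 to 0.630 against 0.0393 to 0.525 CPM, and fibroblast markers at 0.264 to 0.734 against 0.689 to 2.24 CPM. The leukocyte marker PTPRC and the fibroblast marker DCN were not found in the count table. The part of these markers in the results was not tested.

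Most promoters of S phase members held an E2F word, and most promoters of mitotic members held a CHR word and a CCAAT box. RefSeq start windows (GRCh38.p14, 250 bases before to 50 after the first listed start) were found for 49 of 57 members, 24 of S phase and 25 of mitosis. MCM4, MCM5, CCNE2, CCND1, AURKA, TTK, TPX2 and UBE2C had no entry. Windows were searched on both strands for 4 E2F words, namely TTCCCGC with the variants written TTCGCGC as well as TTGCCGC and also TTGGCGC, for the CHR word TTTGAA and for the box CCAAT. On the other strand CCAAT reads as ATTGG, which can share its last letters with TTGGCGC. A match is a description of letters and not a shown binding site.

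Stretches of the 250 bases before the start are shown for the S phase genes CDT1 and PCNA, which had an unadjusted p under 0.05, and for the mitotic genes PLK1 and CDC20, with means above control, and CCNB1, with a mean below it; they were chosen with these values known. Each runs 5' to 3' on the strand of its gene. CDT1 is at chr16:88803539-88803788 on the plus strand, PCNA at chr20:5126623-5126872 on the minus strand, PLK1 at chr16:23678639-23678888 on the plus strand, CDC20 at chr1:43358731-43358980 on the plus strand and CCNB1 at chr5:69166900-69167149 on the plus strand. Capitals mark E2F words in CDT1 and PCNA, and E2F, CHR and CCAAT words in the other sequences.
CDT1: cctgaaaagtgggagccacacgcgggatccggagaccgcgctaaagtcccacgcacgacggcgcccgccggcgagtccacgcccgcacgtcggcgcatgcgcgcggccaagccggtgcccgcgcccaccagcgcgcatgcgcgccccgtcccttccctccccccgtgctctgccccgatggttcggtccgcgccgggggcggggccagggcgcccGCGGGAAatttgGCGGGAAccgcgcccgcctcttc
PCNA: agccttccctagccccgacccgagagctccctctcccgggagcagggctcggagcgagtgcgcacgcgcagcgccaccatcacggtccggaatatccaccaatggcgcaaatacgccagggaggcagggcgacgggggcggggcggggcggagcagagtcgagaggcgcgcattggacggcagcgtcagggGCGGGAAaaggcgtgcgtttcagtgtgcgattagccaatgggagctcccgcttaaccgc
PLK1: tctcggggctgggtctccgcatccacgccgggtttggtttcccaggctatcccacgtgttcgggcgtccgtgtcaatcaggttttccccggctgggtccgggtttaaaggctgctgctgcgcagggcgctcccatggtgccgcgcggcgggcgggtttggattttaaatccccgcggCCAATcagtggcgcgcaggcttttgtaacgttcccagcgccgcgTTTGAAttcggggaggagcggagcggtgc
CDC20: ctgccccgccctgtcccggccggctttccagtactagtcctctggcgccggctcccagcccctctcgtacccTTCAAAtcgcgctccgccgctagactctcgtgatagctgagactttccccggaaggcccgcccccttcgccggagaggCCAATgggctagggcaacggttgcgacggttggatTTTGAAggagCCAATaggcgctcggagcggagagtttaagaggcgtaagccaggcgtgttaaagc
CCNB1: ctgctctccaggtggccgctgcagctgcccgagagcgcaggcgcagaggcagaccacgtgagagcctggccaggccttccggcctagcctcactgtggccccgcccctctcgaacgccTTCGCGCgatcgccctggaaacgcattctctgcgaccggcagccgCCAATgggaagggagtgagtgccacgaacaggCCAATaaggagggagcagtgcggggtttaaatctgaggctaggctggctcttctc

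In CDT1 a pair of E2F words stood close before the start, with first bases at -35 and -23, and in PCNA 1 stood at -59. PLK1 had a CHR word at -29 and a CCAAT box at -73. CDC20 had CHR words at -178 on the other strand and at -65, with CCAAT boxes at -100 and -55. CCNB1 had no TTTGAA in this window, and had CCAAT boxes at -87 and -55 and an E2F word at -132.

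An E2F word was found in 18 of 24 S phase windows (75%), against 7 of 25 mitotic windows (28.0%), 20.9% of 9536 windows of tested genes and 13.1% of all 27305 windows. Among those 18 were MCM2, MCM3, MCM6, MCM7, CDC6, GINS1, GINS2, POLA1, RFC2, RFC4, LIG1, RRM1, TYMS, UHRF1 and E2F1 itself. The mitotic windows with an E2F word were those of CCNB1, CDC25C, CDK1, CENPA, ASPM, DLGAP5 and NUSAP1. The CHR word was found in 16 of 25 mitotic windows (64.0%) and in 1 of 24 S phase windows (4.17%), that of RRM1, against 9.31% of windows of tested genes. CCAAT was frequent in both classes, in 21 of 25 mitotic windows (84.0%) and 13 of 24 S phase windows (54.2%), against 36.6% of windows of tested genes. CHR and CCAAT stood together in 15 of 25 mitotic windows (60.0%), against 4.0% of windows of tested genes. Counted from the start, the median first base was -23 for 34 E2F matches in S phase windows, -29 for 22 CHR matches in mitotic windows and -86 and -83 for CCAAT in the respective classes. SLBP, FEN1, TK1 and CCNE1 of S phase and KIF2C and CENPE of mitosis had none of these words in the window, as did 46.3% of windows of tested genes.

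Both programmes were expressed in every library. The authors' FPKM values, which are reads scaled to gene length and to library size, allow levels to be compared between genes. That scaling does not correct for GC content. The median control level was 26.3 FPKM over S phase members and 9.51 FPKM over mitotic members, against 2.59 FPKM over all tested genes. In control cells 20 of 27 S phase members and 14 of 29 mitotic members reached 10 FPKM. Members ran from CENPE, a kinetochore motor, at 0.0767 ± 0.0321 FPKM to the mitotic kinase PLK1 at 140.2 ± 8.58 FPKM (SD, n = 3). Long genes had lower FPKM (Spearman rho -0.583 between control FPKM and gene length over 57 genes, given as a description).

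**Figure D1:**
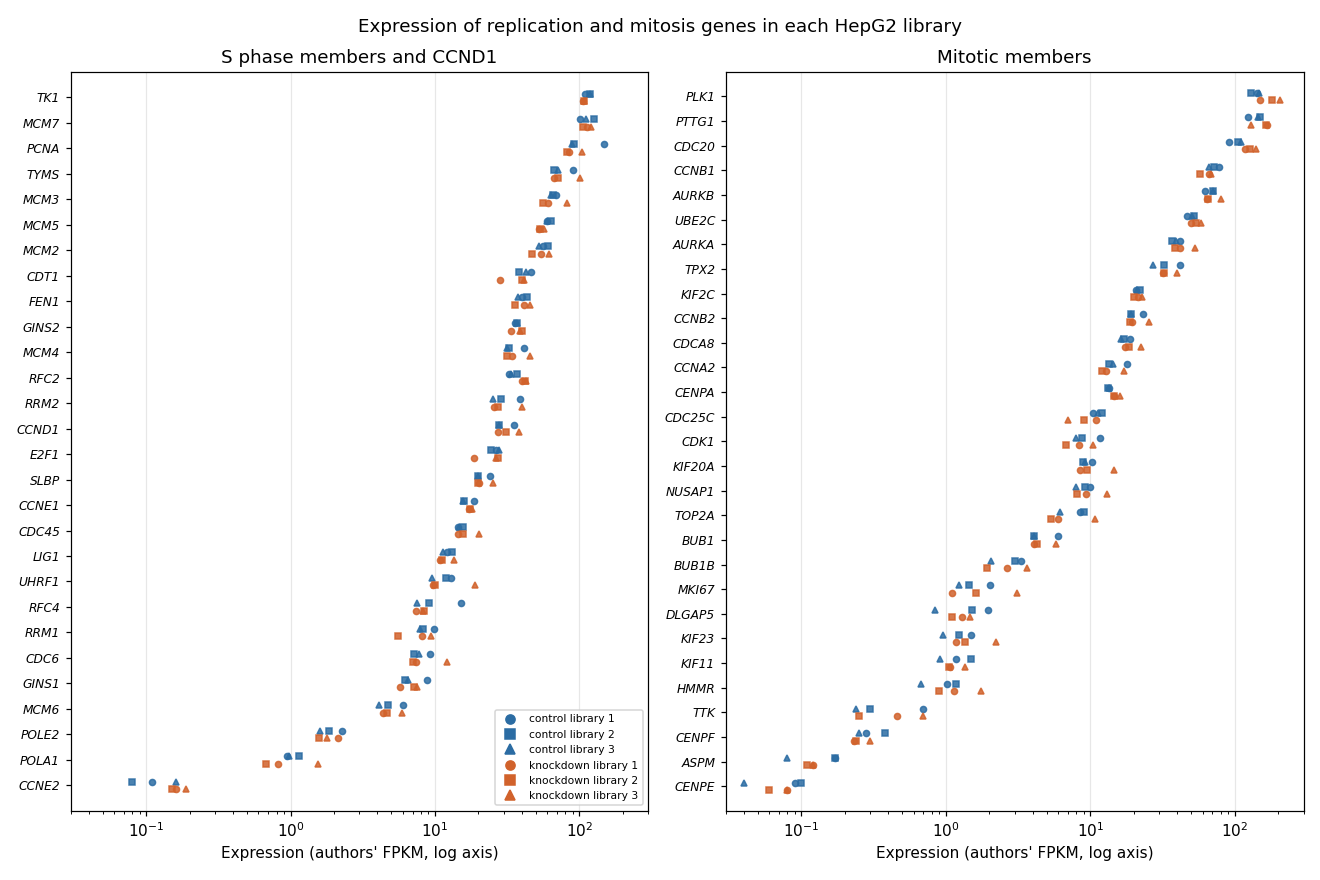
Expression of each member in each library, as the authors' FPKM on a log axis, with S phase members and CCND1 on the left and mitotic members on the right, ordered by level. Circles, squares and triangles are libraries 1, 2 and 3, blue for control and orange for knockdown; levels span from below 0.1 FPKM for CENPE to above 100 FPKM for PLK1, and the groups overlap for most genes.

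Partners of one machine differed widely in level. Within the MCM hexamer, whose subunits act together, MCM7 stood at 112.6 FPKM and MCM6 at 4.95 FPKM in control cells, 22.8 times apart. CCNE1 exceeded CCNE2, the other cyclin E, 98.3 to 200.4 times in control libraries and 95.2 to 115.9 times in knockdown libraries. CCNB1 exceeded CCNB2 by 3.36 to 3.72 times in control and 2.65 to 3.38 times in knockdown libraries. Among mitotic regulators, CCNB1 stood at 72.2 FPKM and its kinase CDK1 at 9.51 FPKM. Securin, encoded by PTTG1, stood at 139.6 FPKM, and the checkpoint kinase TTK at 0.413 FPKM. GC content of the longest transcript was 57.6% for MCM7 and 43.1% for MCM6, and 52.9% for CCNE1 and 36.9% for CCNE2. For CCNB1 it was 43.15%, against 37.0% for CDK1 but 44.35% for CCNB2. PTTG1 had 49.25% and TTK 40.8%. The part of GC content in these levels was not tested.

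No member passed an adjusted p of 0.05 (0 of 57 by edgeR's quasi-likelihood test with Benjamini-Hochberg adjustment over all tested genes), where 1.41% of 14197 tested genes passed. DESeq2 and limma voom also called 0 members, where they called 2.06% and 1.16% of the genes they tested. At an unadjusted p under 0.05 there were 6 members, all with negative log2 fold changes: PCNA, RFC4, CDT1 and MCM5 of S phase and CCNB1 and CDC25C of mitosis. That is 6 of 57 beside a background of 11.1% in either direction and 4.27% for lower values alone; 0 members, against 6.8% of tested genes, had such a p with a higher value. All 3 knockdown libraries lay below all 3 control libraries for 6 members (MCM5, PCNA, LIG1, RRM1, CCNB1 and CENPF), beside 7.3% of tested genes, and above them for 1 member (CDC20), beside 9.83%, or 17.1% in either direction. Of the 57 fold changes 40 were negative, beside 50.4% of tested genes. The smallest adjusted p of a member was 0.355, for RFC4.

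**Figure D2:**
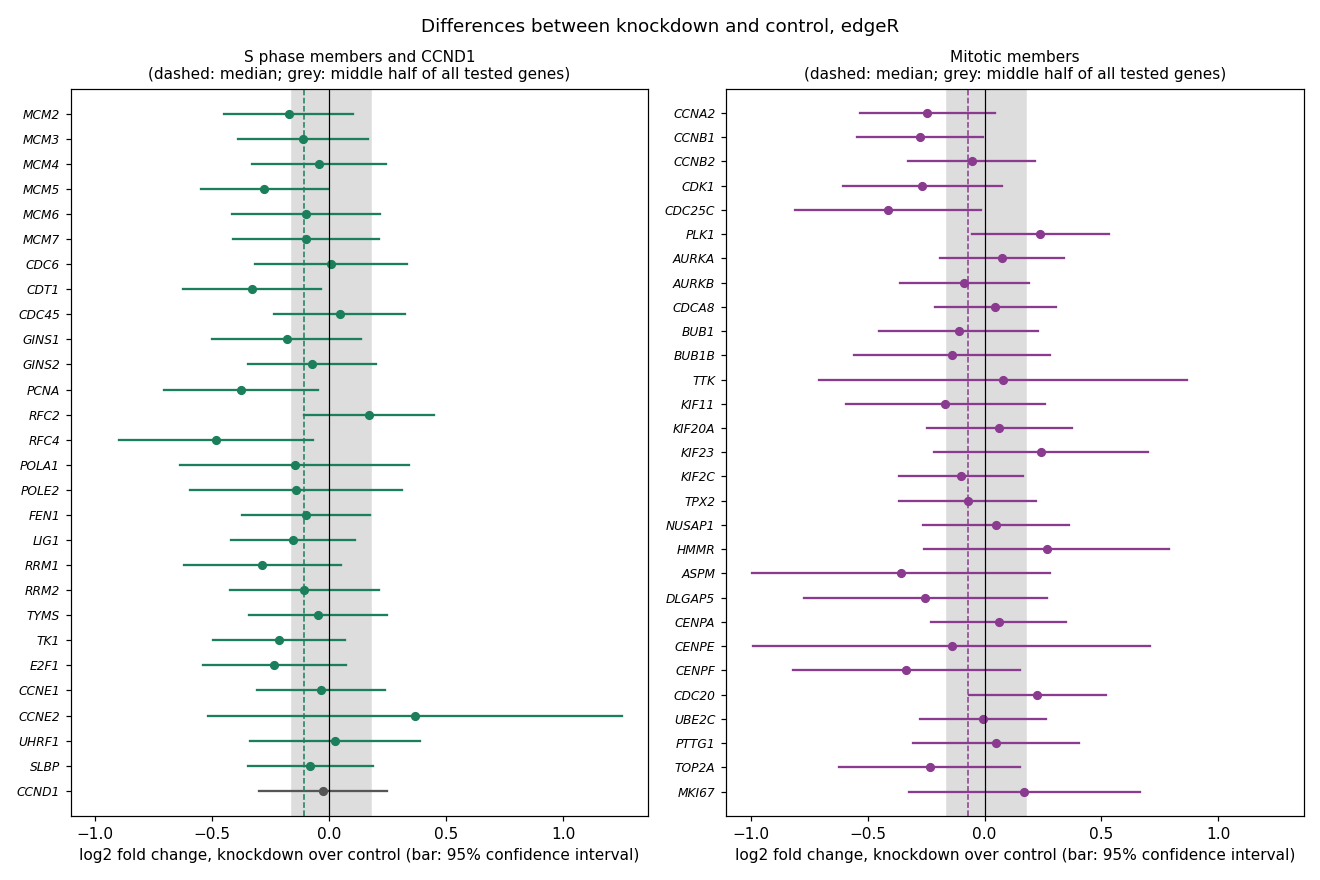
Log2 fold change of each member, knockdown over control, with its 95% confidence interval from edgeR; the dashed line is the median of the class and the grey band the middle 50% of all tested genes. Most S phase values lie just left of 0 (22 of 27) and mitotic values on both sides (17 of 29 left of 0). None passed the adjusted threshold. On FPKM, which is not rescaled by TMM, 13 of 27 and 11 of 29 are negative. There the median of all tested genes is 0.057 on log2(FPKM + 1) and 0.091 on log2(FPKM + 0.1).

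The MCM helicase genes encode the ring that unwinds DNA ahead of the fork. All 6 log2 fold changes were negative on the CPM scale (median -0.11). On log2(FPKM + 0.1) 3 of 6 were negative and the median was -0.0004, where the median of all tested genes was 0.09. Relative to all tested genes the MCM median stood at -0.10 on CPM, -0.09 on log2(FPKM + 0.1) and -0.058 on log2(FPKM + 1). FPKM values of single genes are given without subtracting the median of all genes. MCM5 gave 216.9, 247.1 and 240.6 CPM in control libraries and 201.7, 199.1 and 180.2 CPM in knockdown libraries. The groups did not overlap, with 234.9 ± 15.9 against 193.7 ± 11.8 CPM (SD, n = 3 each; a difference of -0.28 log2 units with an SE of 0.13, edgeR adjusted p = 0.434). The value for MCM5 ran from -0.33 to -0.22 as each library was left out. MCM7, the most abundant subunit, gave 376.6, 500.5 and 462.8 CPM in control and 448.0, 409.4 and 393.6 CPM in knockdown libraries, which overlapped (-0.10, edgeR adjusted p = 0.861; 0.014 on FPKM). The other subunits ranged from -0.17 for MCM2 to -0.04 for MCM4.

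Origin licensing and helicase activation involve CDC6 and CDT1, which load the ring, and CDC45 and the GINS complex, which switch it on. CDT1 gave 153.1, 135.4 and 157.6 CPM in control libraries and 99.3, 135.8 and 119.9 CPM in knockdown libraries. Knockdown library 1 was the lowest, and knockdown library 2 reached the range of the controls (a difference of -0.33 log2 units with an SE of 0.14, edgeR adjusted p = 0.385). Leaving out knockdown library 1 gave -0.22, and leaving out knockdown library 2 gave -0.45. GINS1 stood at -0.18, GINS2 at -0.07, CDC6 at 0.01 and CDC45 at 0.04 on the log2 CPM scale. The sign for CDC6 turned negative with RLE normalization, DESeq2 and voom, and that for GINS2 turned positive on FPKM.

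The sliding clamp PCNA, the RFC complex that loads it, the polymerase subunits POLA1 and POLE2, the flap nuclease FEN1 and the ligase LIG1 build and join the new strands. In this group 6 of 7 values were negative, with a median of -0.15 (5 of 7 and -0.05 on log2(FPKM + 0.1)). Relative to all tested genes the medians on these scales were -0.145 and -0.139, and on log2(FPKM + 1) the median was -0.09. PCNA gave 222.0, 148.1 and 148.6 CPM in control and 136.0, 126.2 and 136.9 CPM in knockdown libraries. All knockdown values lay below all controls, and control library 1 was far above the other controls (172.9 ± 42.5 against 133.0 ± 5.91 CPM, SD, n = 3 each; a difference of -0.38 log2 units with an SE of 0.16, edgeR adjusted p = 0.367). Without control library 1 the log2 fold change of PCNA was -0.16, and without control library 2 it was -0.48.

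RFC4 had the same layout, with 24.7, 15.9 and 13.6 CPM in control and 12.9, 14.1 and 11.8 CPM in knockdown libraries. Control library 1 again stood highest, and 1 knockdown library overlapped the controls (-0.48, SE 0.20, edgeR adjusted p = 0.355; -0.19 without control library 1). RFC2, another subunit of the clamp loader, had a positive value of 0.17. LIG1 was tight in both groups, at 54.8, 62.5 and 56.9 CPM in control and 51.6, 51.2 and 53.6 CPM in knockdown libraries. The groups did not overlap, and differed by -0.16 log2 units (SE 0.12, edgeR adjusted p = 0.705). FEN1 stood at -0.10 (0.0025 on FPKM), POLA1 at -0.15 and POLE2 at -0.14.

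Nucleotide supply is covered by RRM1 and RRM2, the subunits of ribonucleotide reductase, by thymidylate synthase (TYMS) and by thymidine kinase (TK1). All 4 values were negative on CPM (median -0.16), against 2 of 4 on log2(FPKM + 0.1) (median -0.05). Relative to all tested genes the medians on these scales were -0.159 and -0.145, and on log2(FPKM + 1) the median was -0.110. RRM1 gave 34.1, 30.2 and 30.15 CPM in control and 29.6, 19.6 and 28.3 CPM in knockdown libraries. The groups did not overlap, and knockdown library 2 was the lowest (-0.29, SE 0.16, edgeR adjusted p = 0.535; -0.13 without that library). TK1, the most abundant of these per length, gave 195.0, 223.9 and 231.9 CPM against 198.6, 195.7 and 166.6 CPM, with overlap (-0.21, edgeR adjusted p = 0.595; -0.13 without knockdown library 3). RRM2 stood at -0.11 and TYMS at -0.05, and both were above 0 on FPKM.

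Regulators of S phase entry did not separate the groups. E2F1, a transcription factor of S phase genes, gave 68.1, 67.3 and 78.5 CPM in control and 50.6, 72.1 and 59.1 CPM in knockdown libraries, with overlap (-0.23, SE 0.15, edgeR adjusted p = 0.592; -0.12 without knockdown library 1 and -0.39 without knockdown library 2). CCNE1 stood at -0.03 on CPM and 0.069 on log2(FPKM + 0.1). CCNE2 had its lowest count, 9 reads, in control library 2, and its 95% interval ran from -0.52 to 1.25 around 0.37. UHRF1, which recruits the maintenance DNA methyltransferase to copied DNA, gave 68.1, 67.2 and 56.1 CPM in control and 54.1, 53.8 and 86.8 CPM in knockdown libraries. Knockdown library 3 held the highest value for UHRF1 and the other knockdown libraries the lowest, and the log2 fold change of 0.02 became -0.23 without that library. SLBP, which binds the stem loop of histone messages, stood at -0.08 (0.026 on FPKM). CCND1, the G1 cyclin, gave 159.3, 133.2 and 139.5 CPM in control and 130.0, 143.0 and 151.2 CPM in knockdown libraries, which overlapped (-0.03, 0.08 on FPKM, edgeR adjusted p = 0.966).

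Among mitotic members the cyclin and CDK1 switch had the lowest median, -0.27, with 5 of 5 values negative on CPM and 4 of 5 on log2(FPKM + 0.1), where CCNB2 turned positive (0.049). CCNB1, the main mitotic cyclin, gave 174.4, 169.8 and 163.4 CPM in control and 156.2, 130.7 and 132.4 CPM in knockdown libraries. The groups did not overlap, with 169.2 ± 5.50 against 139.8 ± 14.3 CPM (SD, n = 3 each; a difference of -0.28 log2 units with an SE of 0.13, edgeR adjusted p = 0.436). The value for CCNB1 stayed between -0.36 and -0.23 as each library was left out. CDC25C, the phosphatase that activates CDK1, gave 27.6, 33.75 and 33.1 CPM in control and 30.4, 24.3 and 16.1 CPM in knockdown libraries. Knockdown library 3 was the lowest and knockdown library 1 lay within the controls (-0.41, SE 0.19, edgeR adjusted p = 0.424). For CDC25C, leaving out knockdown library 3 gave -0.19 and leaving out knockdown library 1 gave -0.64.

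CCNA2, a cyclin of S phase and early mitosis, gave 51.8, 41.2 and 45.8 CPM in control and 39.0, 35.5 and 42.7 CPM in knockdown libraries (-0.24, edgeR adjusted p = 0.539). CDK1 gave 24.4, 19.6 and 18.5 CPM in control and 18.4, 14.6 and 19.01 CPM in knockdown libraries (-0.27, edgeR adjusted p = 0.579). The groups of both genes overlapped, with control library 1 the highest in each; without it CCNA2 stood at -0.16 and CDK1 at -0.14.

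PLK1, a kinase that acts from mitotic entry to exit, gave 327.5, 317.0 and 370.7 CPM in control and 364.6, 423.5 and 409.5 CPM in knockdown libraries. Only knockdown library 1 reached into the controls (338.4 ± 28.5 against 399.2 ± 30.8 CPM, SD, n = 3 each; a difference of 0.24 log2 units with an SE of 0.14, edgeR adjusted p = 0.557). AURKA, the spindle pole kinase, stood at 0.07 and CDCA8, a subunit of the chromosomal passenger complex, at 0.05. CDCA8 had the tightest values of the members, 47.9, 46.4 and 45.9 CPM in control and 47.0, 47.8 and 49.9 CPM in knockdown libraries. AURKB, the kinase of that complex, stood at -0.09 and at 0.026 on FPKM.

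The APC/C pathway ends mitosis, with CDC20 as an activator, UBE2C as a conjugating enzyme and PTTG1 as a substrate. CDC20 gave 170.2, 210.8 and 229.3 CPM in control and 236.2, 246.5 and 231.2 CPM in knockdown libraries. It was the only member whose knockdown libraries all lay above the controls, and the gap to control library 3 was small (203.4 ± 30.2 against 238.0 ± 7.81 CPM, SD, n = 3 each; a difference of 0.23 log2 units with an SE of 0.14, edgeR adjusted p = 0.587). Without control library 1 the value for CDC20 was 0.11. PTTG1 gave 146.3 to 189.0 CPM in control libraries and 132.9 (library 3) to 209.4 (library 1) CPM in knockdown libraries, so the knockdown libraries held both its highest and its lowest value (0.05). UBE2C stood at -0.01, and at 0.10 on FPKM.

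Checkpoint, kinesin, spindle and centromere genes showed no common direction. BUB1, a checkpoint kinase, gave 22.4, 16.2 and 16.9 CPM in control and 16.1, 16.4 and 18.9 CPM in knockdown libraries (-0.11, and 0.0061 on FPKM). BUB1B, the checkpoint protein BubR1, stood at -0.14. The kinase TTK varied most among the members, from 1.04 to 2.72 CPM in control and from 1.01 to 2.40 CPM in knockdown libraries (0.08, and from -0.19 to 0.63 as each library was left out). KIF2C, a kinesin that takes microtubules apart, stood at -0.10 (0.0031 on FPKM), and KIF11, which pushes spindle poles apart, at -0.17. KIF23 and KIF20A, kinesins of the central spindle, stood at 0.24 and 0.06; without knockdown library 3 KIF23 stood at 0.032. Of the spindle assembly factors, TPX2 gave 155.8, 128.0 and 111.9 CPM in control and 125.9, 122.2 and 128.1 CPM in knockdown libraries, a spread far wider in control than in knockdown cells (-0.07, and 0.045 on FPKM).

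ASPM, a spindle pole protein, stood at -0.36 (SE 0.30; -0.20 without control library 2 and -0.60 without control library 3), and the microtubule-associated proteins DLGAP5, NUSAP1 and HMMR at -0.25, 0.05 and 0.27. Without control library 1 DLGAP5 stood at -0.018, without control library 3 at -0.50, and HMMR ran from 0.073 without knockdown library 3 to 0.45 without control library 2. CENPF, a kinetochore protein, gave 2.92, 4.27 and 2.94 CPM in control and 2.64, 2.62 and 2.77 CPM in knockdown libraries, without overlap (-0.33, SE 0.23, edgeR adjusted p = 0.637; -0.13 without control library 2). CENPA, the centromeric histone variant, was nearly the same in both groups, at 21.1 ± 1.09 and 22.0 ± 1.02 CPM (SD, n = 3 each; 0.06, 95% interval -0.23 to 0.35). CENPE stood at -0.14 with 11 reads in its lowest library.

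TOP2A, which untangles sister chromatids, and MKI67, the Ki-67 proliferation marker, depended on knockdown library 3. TOP2A gave 49.9, 57.2 and 40.5 CPM in control and 37.4, 32.5 and 55.55 CPM in knockdown libraries. Without knockdown library 3 its log2 fold change went from -0.23 to -0.48, and without knockdown library 2 to -0.10. MKI67 gave 26.2, 19.9 and 17.8 CPM in control and 15.2, 21.7 and 35.1 CPM in knockdown libraries. Its value of 0.17 (edgeR adjusted p = 0.847) ran from -0.20 without knockdown library 3 to 0.41 without knockdown library 1, so its direction rested on knockdown library 3.

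The S phase members were next set against the mitotic members. The median log2 fold change was -0.11 over S phase members (22 of 27 negative, 81.5%) and -0.07 over mitotic members (17 of 29 negative, 58.6%), against -0.0023 over all tested genes. On log2(FPKM + 0.1) the medians were 0.0025 and 0.045 with 0.09 over all genes, so that relative to all genes they stood at -0.09 and -0.05; on log2(FPKM + 1) they stood at -0.055 and -0.014 relative to all genes. Median deviations from the control mean in log2 CPM were 0.05, -0.03 and -0.02 in control libraries and -0.12, -0.18 and -0.11 in knockdown libraries for S phase members. All 3 knockdown libraries lay below the controls on that measure, by more than the pooled SD of 0.039 between libraries.

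Mitotic medians were 0.04, 0.05 and -0.11 in control and -0.04, -0.16 and -0.01 in knockdown libraries, and the groups overlapped. The S phase median minus the mitotic median was 0.0013, -0.08 and 0.09 in control and -0.08, -0.02 and -0.10 in knockdown libraries. These values overlapped as well, so the classes were not shown to differ in their response. The share of all reads that fell on the 57 members was 0.479%, 0.457% and 0.439% in control and 0.433%, 0.445% and 0.534% in knockdown libraries, highest in knockdown library 3. Unlike the medians, these shares are not scaled by TMM factors, and knockdown library 3 had the highest factor (1.166).

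**Figure D3:**
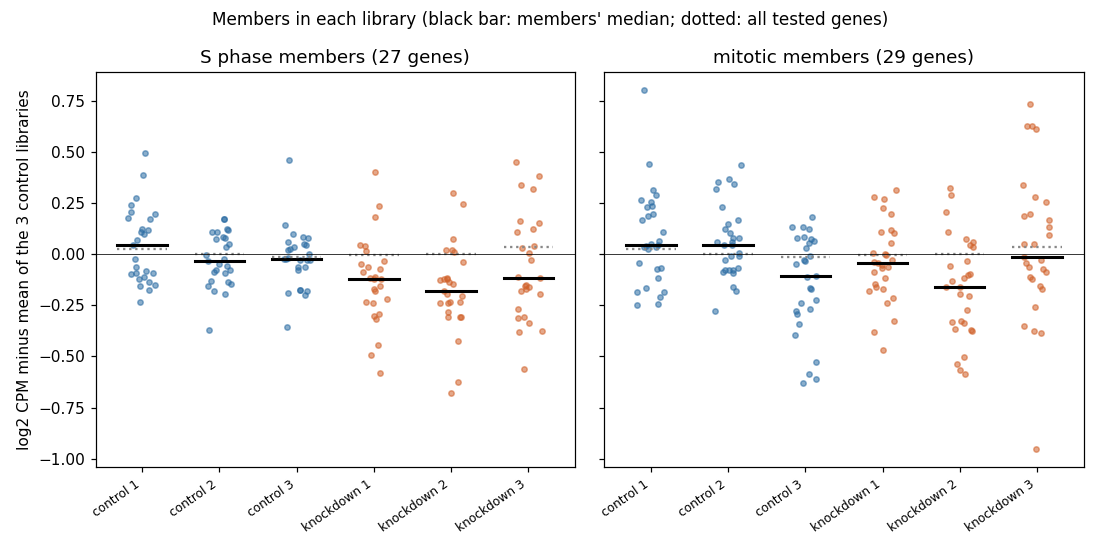
Log2 CPM of each member minus its mean over the 3 control libraries, in each of the 6 libraries, for S phase and mitotic members; black bars are the members' medians and dotted marks the median of all tested genes. S phase medians are -0.12, -0.18 and -0.11 in the knockdown libraries, and the mitotic medians overlap between groups. On log2(FPKM + 0.1) the median fold changes of S phase and mitotic members are 0.0025 and 0.045, against 0.09 over all tested genes.

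Gene length moved with the differences between libraries of a group. Each library's deviation from the mean of all 6 libraries was set against gene length. Over the 57 members the Spearman rho was 0.265, 0.167 and -0.397 in control and -0.312, -0.383 and 0.398 in knockdown libraries, given as descriptions. Over 14075 tested genes with a length the same measure was 0.229, -0.149 and -0.363 in control and -0.205, -0.164 and 0.378 in knockdown libraries. For the 19 longest members (3798 to 13232 bases, 10 of them mitotic), median deviations were taken from the control mean. They were 0.17, 0.08 and -0.18 in control and -0.16, -0.21 and 0.11 in knockdown libraries. Knockdown library 3 was the highest knockdown library for 16 of these 19 genes, MKI67, TOP2A and UHRF1 among them. The part of length in the differences between groups was not tested beyond a length correction, under which 24 of 27 S phase and 16 of 29 mitotic values were negative and 0 members passed, where 1.97% of all tested genes did.

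**Figure D4:**
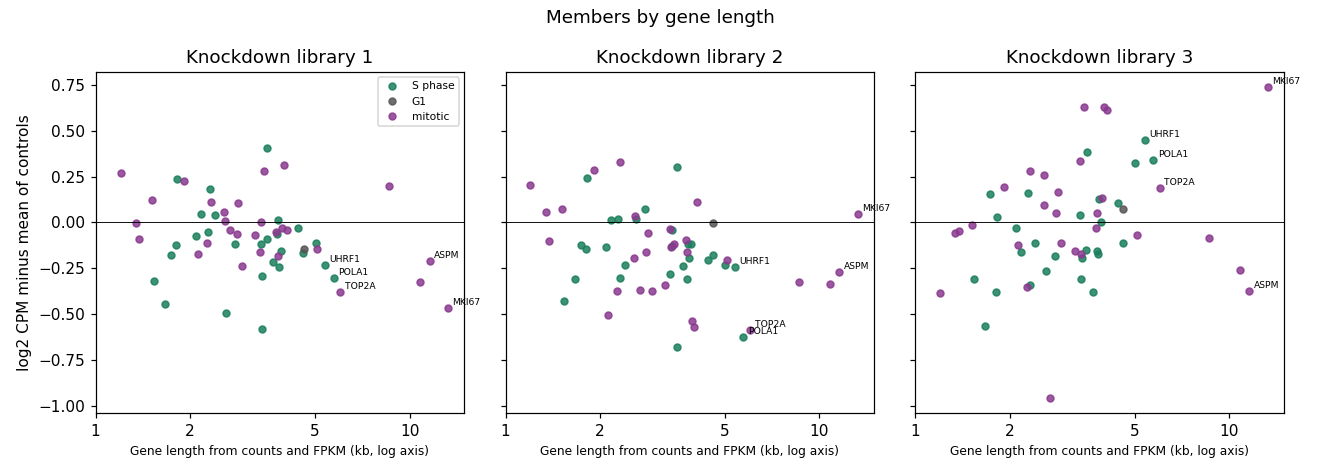
Log2 CPM of each member minus its control mean against gene length in kilobases (log axis), for each knockdown library, with S phase members in green, mitotic members in purple and CCND1 in grey. Long genes lie low in knockdown libraries 1 and 2 and many lie high in knockdown library 3, where MKI67 is the highest point. For deviations from the mean of all 6 libraries, which are not plotted, Spearman rho with length was -0.312, -0.383 and 0.398.

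The precision differed between members. They had 9 to 14429 reads per library, and 50 of 57 had at least 100 reads in every library. The 95% interval of the fold change lay within 2-fold in either direction for 56 of 57 members, the exception being CCNE2, and within 1.5-fold for 38 of 57 (20 of S phase, 17 of mitosis and CCND1). The median SD of log2 CPM between replicates was 0.159 in control and 0.132 in knockdown libraries over members, against 0.195 and 0.219 over all tested genes, whose levels were lower. Values of 17 members could include reads of a gene on the other strand that shares exon bases with them, such as 967 bases of TYMS with ENOSF1, 553 bases of PLK1 with AC008870.3, 392 bases of MCM7 with AP4M1 and 293 bases of CDC25C with FAM53C. Whether counting used strand is not given in the sources used here. In addition 11 members, PCNA, RRM2 and UBE2C among them, have pseudogenes named after them, with which reads could have been shared.

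GENCODE 29 places the members with an unadjusted p under 0.05, and PLK1 and CDC20, as follows on GRCh38. PCNA spans chr20:5114953-5126626 (minus strand), CDT1 chr16:88803213-88809258 (plus), RFC4 chr3:186789880-186807058 (minus) and MCM5 chr22:35400063-35425430 (plus). CCNB1 spans chr5:69167010-69178245 (plus), CDC25C chr5:138285265-138338355 (minus), PLK1 chr16:23677656-23690367 (plus) and CDC20 chr1:43358955-43363203 (plus). All are annotated as protein-coding genes, and counts are over whole genes. The RefSeq starts used for the promoter stretches differ from the gene starts in these spans. The stretches printed for CDT1 and PLK1 lie wholly within the spans, and those for CCNB1, CDC20 and PCNA overlap them in part.

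Further genes of the same pathways were read from the same fit. Of 41 further replication genes, 0 passed in either direction, 2 had an unadjusted p under 0.05, 30 had negative values and the median was -0.12 (-0.018 on log2(FPKM + 0.1)), beside 1.41% passing, 11.1% with such a p and 50.4% negative among all tested genes. PRIM1, a primase subunit, gave 14.4, 9.30 and 9.37 CPM in control and 8.63, 5.99 and 6.92 CPM in knockdown libraries (-0.62, SE 0.21, edgeR adjusted p = 0.206; -0.38 without control library 1). Its groups did not overlap. Beside the same shares, of 49 further mitosis genes 0 passed, 2 had an unadjusted p under 0.05, 26 were negative and the median was -0.01 (0.087 on log2(FPKM + 0.1)). SPC24, a subunit of the kinetochore NDC80 complex, stood at -0.44 and ECT2, which directs cytokinesis, at 0.50 (edgeR adjusted p = 0.206 and 0.389); without knockdown library 3 ECT2 stood at 0.32.

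The third list held genes that open or brake the cell cycle, such as retinoblastoma and E2F family members and CDK inhibitors. Of 40 tested, 1 passed as higher and 0 as lower, where 1.26% and 0.148% of tested genes did. CDKN1A, which encodes the CDK inhibitor p21, gave 116.2, 139.0 and 135.5 CPM in control and 211.2, 210.3 and 192.8 CPM in knockdown libraries. It rose from a mean of 130.2 ± 12.3 CPM to one of 204.7 ± 10.4 CPM (SD, n = 3 per group; a difference of 0.65 log2 units with an SE of 0.13, edgeR adjusted p = 0.0159). The call for CDKN1A was lost without any 1 control library or without knockdown library 2, and its adjusted p ran from 0.000363 with DESeq2 to 0.140 over all alternatives. The median of the list was -0.02, and 0.079 on log2(FPKM + 0.1).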

How the data were processed

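The authors deposited read counts and FPKM values, each per gene, for 6 libraries; per the labels' protocols, polyadenylated RNA was read as directional paired reads of 150 bases. The tools named per the submitters' processing notes are bcl2fastq, TopHat2 and edgeR, on GRCh38; the counting step, the annotation and strand use were not given in the sources used here. Deposited counts were tested with edgeR 4.0.16 in R 4.3.3 (filterByExpr, TMM, robust quasi-likelihood, group as the only term), with Benjamini-Hochberg adjustment over 14197 genes and a threshold of 0.05. CPM use TMM-scaled library sizes, except those of cell type markers, which use total reads. The authors' FPKM use no TMM factors, and serve for levels and as a second scale. Gene lengths came from the ratio of counts to FPKM (at least 5 reads and 0.1 FPKM). Alternatives used DESeq2 1.42.0, limma 3.58.1 and the settings named in the closing section. The procedure was tested on simulated data. Members and lists were chosen with earlier results of these data known. Values were described for members past the threshold, per role the most abundant member and the one with the smallest p, the 3 most variable members, up to 4 called genes or the 2 of smallest p per list, and TPT1; other members' values were added for completeness. Values of 1 gene of the replication list that the rule picks are not reported here. Figures were drawn with matplotlib 3.10.9.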

Additional observations from a re-analysis of the deposited data

How the results depend on the processing

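No member passed under any alternative or with any library left out, and the smallest adjusted p of a member ran from 0.104 (TOP2A, without knockdown library 3) to 0.528 over those settings. All genes called numbered 200, 317 with no filter, 130 with the replicate block, and 79 to 343 with each library left out (leaving out control library 1, 2 or 3 gave 90, 79 or 101, and leaving out knockdown library 1, 2 or 3 gave 177, 89 or 343). Same-numbered libraries did not deviate together (correlations -0.232, 0.0015 and -0.2; 0 of 3 correlated best with their own number), so the numbers were not taken as pairs; under the block CDKN1A was lost (0 of the entry and brake genes; adjusted p = 0.0725), and CDC6 and UHRF1 changed sign (-0.0069 and -0.0094). The same list held 0 calls to 1 call with each library left out. The S phase median was 0.0025 on log2(FPKM + 1) and on log2(FPKM + 0.1), and -0.16 to -0.074 with each library left out (-0.15 without control library 3); the mitotic median was 0.043 and 0.045 on the respective FPKM scales and -0.10 to -0.02 with each library left out; S phase minus mitotic ran from -0.11 to -0.036 with each library left out. Other replication genes had medians of -0.017 and -0.018 on the FPKM scales and -0.14 to -0.048 with each library left out, and entry and brake genes 0.072 and 0.079.

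Signs of small values turned with the scale. On log2(FPKM + 1) and log2(FPKM + 0.1) the values were MCM4 0.060 and 0.062, MCM6 0.011 and 0.014, MCM7 0.014 on both, GINS2 0.029 and 0.030, FEN1 0.0026 and 0.0025, RRM2 0.0025 on both, TYMS 0.056 on both, CCNE1 0.065 and 0.069, SLBP 0.025 and 0.026, CCND1 0.078 and 0.080, CCNB2 0.047 and 0.049, AURKB 0.026 on both, BUB1 0.0044 and 0.0061, KIF2C 0.0030 and 0.0031, TPX2 0.043 and 0.045, and UBE2C 0.10 on both; FPKM is not scaled by TMM. CDC6 gave -0.0044 with RLE, -0.0046 with no filter, -0.0034 at 1 CPM in 3 libraries, -0.0069 with DESeq2, -0.0073 with voom, -0.034 with the length correction and -0.016 with the GC content correction, which was chosen after seeing the data. UHRF1 gave -0.0077 with voom and -0.030 with the length correction, and UBE2C 0.028 with the latter. With each library left out, genes whose sign turned ranged as follows: BUB1 -0.20 to 0.050, BUB1B -0.29 to 0.022, CCNB2 -0.10 to 0.00037, CCND1 -0.082 to 0.052, CCNE1 -0.075 to 0.037, CDC45 -0.022 to 0.089, CDC6 -0.16 to 0.10, CENPE -0.41 to 0.10, KIF11 -0.31 to 0.038, KIF20A -0.087 to 0.16, MCM4 -0.11 to 0.047, MCM6 -0.19 to 0.013, MKI67 -0.20 to 0.41, NUSAP1 -0.056 to 0.15, POLA1 -0.46 to 0.031, PTTG1 -0.071 to 0.24, RRM2 -0.22 to 0.043, TPX2 -0.18 to 0.063, TTK -0.19 to 0.63, TYMS -0.15 to 0.046, UBE2C -0.085 to 0.034 and UHRF1 -0.23 to 0.14. Among members whose sign held, the ranges were MCM2 -0.23 to -0.11, MCM3 -0.19 to -0.050, MCM7 -0.21 to -0.011, GINS1 -0.27 to -0.052, GINS2 -0.16 to -0.013, RFC2 0.096 to 0.25, POLE2 -0.34 to -0.039, FEN1 -0.18 to -0.041, LIG1 -0.20 to -0.10, CCNE2 0.17 to 0.67, SLBP -0.12 to -0.026, AURKA 0.029 to 0.12, AURKB -0.18 to -0.022, KIF2C -0.16 to -0.058 and CENPA 0.026 to 0.10. In all, 39 of 57 members kept their sign under all 8 other scalings (16 of 27 S phase, 23 of 29 mitotic). The median of all tested genes moved as well, from -0.0023 to 0.057 and 0.091 on the respective FPKM scales. The cause of the changes was not tested.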
